A study of Rattus norvegicus with 8 samples.

Results

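The genes described here encode the mitochondrial carrier family, named Slc25 in the rat, together with the uncoupling proteins Ucp1, Ucp2 and Ucp3, which belong to the same protein family. They were taken from the array by name: a probe counted as a member when its RefSeq accession matched a rat symbol made of Slc25a and a number, or of Ucp and a digit. This gave 42 genes, on 52 probes, out of 15637 genes that could be named. Of these, 36 were bright enough to be tested among 12411 genes.

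Kidney RNA came from male rats labelled as 10 weeks of age. The control samples are labelled saline, day 28 (n = 4), and the treated samples carry colistin at 30 mg/kg, day 28 (n = 4). Colistin is a polymyxin antibiotic that injures the renal tubule. The labels give no strain, route or number of doses, and nothing in them ties the samples to different animals; a p-value here therefore reflects how far these 8 samples scatter, and that scatter may be technical. Each sample was hybridised to its own 1-colour Agilent array.

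Mitochondrial carriers sit mostly in the inner membrane and move ADP and ATP, phosphate, organic acids, amino acids, acylcarnitines, cofactors and metal ions between the cytosol and the matrix. Each protein is built from repeats of a short module with paired membrane helices. The proximal tubule is rich in mitochondria and depends on fatty acid and glutamine oxidation, so these carriers link its fuel supply to sodium reabsorption, gluconeogenesis and ammonia production. Uncoupling proteins let protons or metabolites cross the inner membrane without making ATP.

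All values below are log2 processed signals minus the 75th percentile of the same array, so that 0 marks that percentile. A level is not compared between genes, because probes differ in their brightness. A difference is colistin minus saline, given with its standard error, and a gene passed when its adjusted p (limma, Benjamini-Hochberg over the 12411 genes) was below 0.05.

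Ucp2 was higher in the colistin kidneys and was the member that passed the test. Ucp2 encodes a widely expressed uncoupling protein, also abundant in immune cells, that exports small organic acids from the matrix. It read -0.70, -0.94, -2.72 and -1.32 on saline arrays 1 to 4 and 3.19, 1.34, 1.54 and 2.50 on colistin arrays 1 to 4. Every colistin array lay above every saline array, and the groups were separated by a wide gap. The difference was 3.56 ± 0.59 (n = 4 per group), an 11.8-fold rise, with a 95% interval of 2.21 to 4.91 (adjusted p = 0.0254, limma). Colistin arrays 1 and 4, both on slide 3, gave the highest Ucp2 values, and saline array 3 of the same slide gave the lowest. Within slides 1, 2 and 3 the difference was 2.35, 2.47 and 5.56. The estimate stayed positive in each of the alternative settings, but the call was lost with slide as a block (3.55, adjusted p = 0.121), without saline arrays 1 and 4 together (3.97, adjusted p = 0.0792), and without any single colistin array. Without colistin array 1, 2, 3 or 4 the adjusted p was 0.0665, 0.0515, 0.0598 or 0.0818. With 1 saline array left out it lay between 0.0419 and 0.0497.

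**Figure D1:**
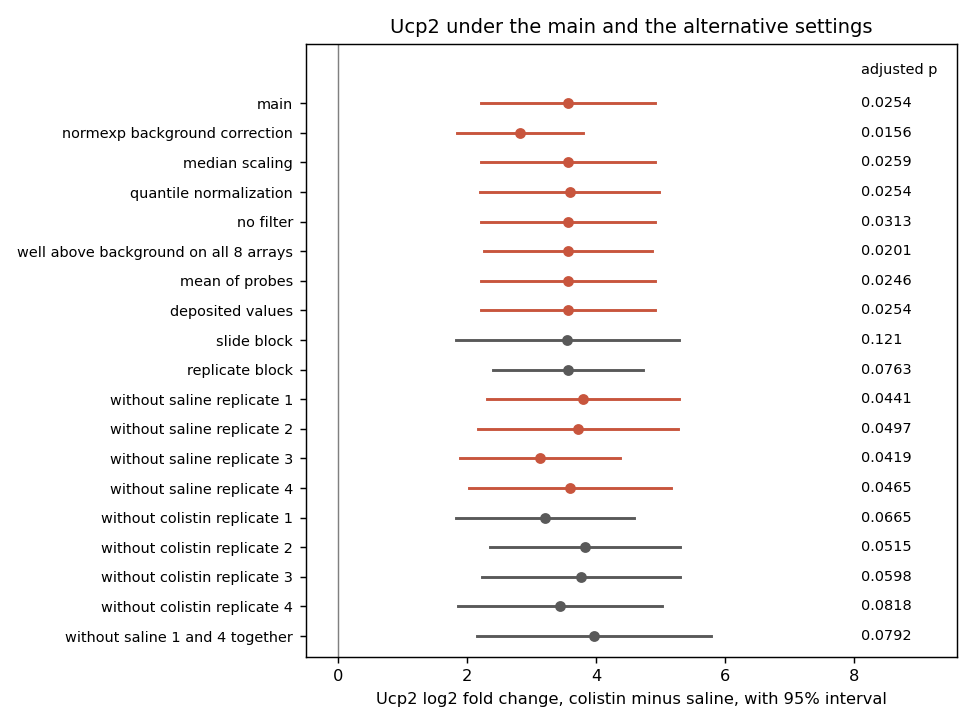
The Ucp2 log2 fold change (x axis, colistin minus saline) is shown with its 95% interval under the main and 18 other settings (y axis), with the adjusted p at the right and calls in red. All estimates lie between 2.82 and 3.97, and the settings that lost the call are those that add a block, leave out a colistin array, or leave out saline arrays 1 and 4.

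The 250 bases before the annotated start of Ucp2 and the 50 after it are printed here with those of Slc25a24 and Slc25a22, whose groups also lay apart with colistin higher, and of Slc25a35, which lay apart with colistin lower. The sequences are RefSeq's, on build GRCr8, which is newer than the build of the array design, and the table held a window for 37 of the 42 members. Capitals mark GC boxes, the letters GGGCGG on either strand. The windows are at chr1:164251123-164251422 on the plus strand, chr2:199449175-199449474 on the plus strand, chr1:205965828-205966127 on the minus strand and chr10:54172115-54172414 on the plus strand, and each reads 5′ to 3′ along its gene.
Ucp2: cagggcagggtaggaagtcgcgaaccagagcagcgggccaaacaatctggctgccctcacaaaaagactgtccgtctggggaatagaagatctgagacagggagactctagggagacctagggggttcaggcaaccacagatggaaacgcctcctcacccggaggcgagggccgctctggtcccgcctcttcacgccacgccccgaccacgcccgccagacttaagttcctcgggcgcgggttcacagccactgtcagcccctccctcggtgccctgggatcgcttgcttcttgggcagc
Slc25a24: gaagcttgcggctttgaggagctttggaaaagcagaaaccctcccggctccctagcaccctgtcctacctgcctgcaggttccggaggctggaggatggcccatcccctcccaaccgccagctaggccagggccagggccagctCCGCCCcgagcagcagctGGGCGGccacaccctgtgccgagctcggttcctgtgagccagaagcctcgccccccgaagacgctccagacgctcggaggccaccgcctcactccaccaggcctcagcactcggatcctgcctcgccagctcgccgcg
Slc25a22: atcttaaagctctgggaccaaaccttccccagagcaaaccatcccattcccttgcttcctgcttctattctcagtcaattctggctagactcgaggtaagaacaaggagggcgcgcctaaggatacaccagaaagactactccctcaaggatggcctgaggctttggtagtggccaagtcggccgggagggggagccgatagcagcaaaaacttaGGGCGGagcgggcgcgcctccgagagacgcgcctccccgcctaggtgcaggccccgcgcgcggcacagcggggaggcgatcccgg
Slc25a35: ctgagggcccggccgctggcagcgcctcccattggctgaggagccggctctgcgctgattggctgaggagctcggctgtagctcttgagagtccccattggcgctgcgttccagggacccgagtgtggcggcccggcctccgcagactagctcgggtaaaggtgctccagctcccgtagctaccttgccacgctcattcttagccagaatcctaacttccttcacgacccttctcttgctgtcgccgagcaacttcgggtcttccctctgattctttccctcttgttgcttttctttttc
Both strands were searched for 5 motifs, none of which overlapped another in these 4 windows. The GC box was in 24 of the 37 member windows (64.9%), against 33.1% of 33469 windows of the same length, and the median GC content was 60.3% in the member windows and 51.7% in all windows. Slc25a24 holds 2 GC boxes and Slc25a22 holds 1. The Ucp2 and Slc25a35 windows hold none of the letters searched. The cAMP response element TGACGTCA was in the windows of Slc25a25 and Slc25a33 (5.41% of the member windows, 1.83% of all). The E-box CACGTG was in 8.11% of the member windows and 6.42% of all windows. The half-site AAGGTCA of the estrogen-related receptors was in 2.7% and 4.61%. The palindromic NRF1 site was in 0 of the 37 member windows and in 0.852% of all windows. These matches describe letters in a window and do not show a bound site.

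Across the family as a whole, 1 of 36 tested members rose and 0 fell, where 1.46% of all genes rose, 0.54% fell and 2.0% passed in either direction. Fold changes were positive in 17 members and negative in 19. Their median was -0.26, with a range of -3.36 to 3.83, and the median of all genes tested was -0.14. The typical size of the difference was 0.84 in the members and 0.71 in all genes, taken as the median absolute log2 fold change. At an unadjusted p below 0.05 there were 7 members, against 22.7% of all genes. Each of these shares is close to that of all genes tested. The filter could keep a member through one bright group alone. Over the 27 members well above background on all 8 arrays the median was -0.28, against -0.24 for all 9261 such genes.

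**Figure D2:**
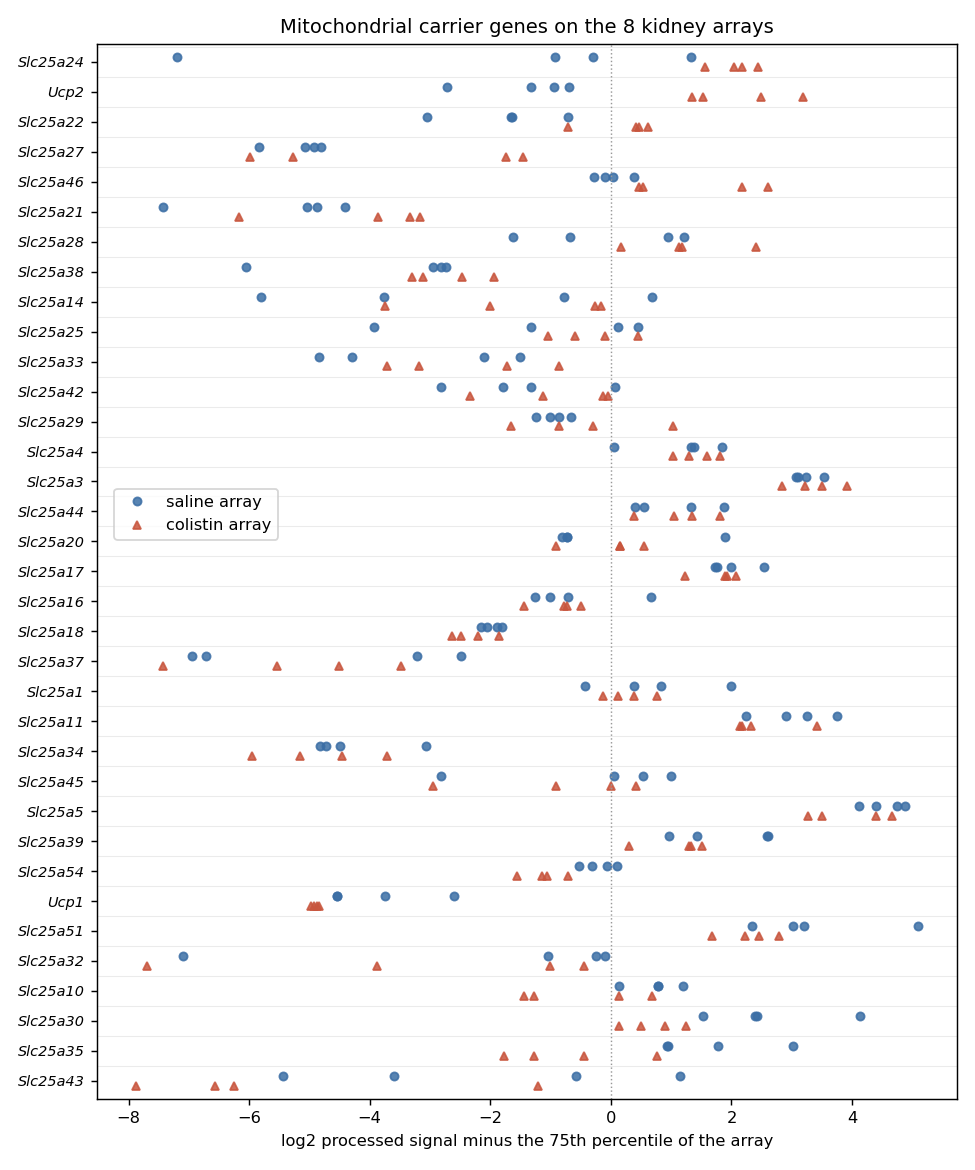
Each row is 1 tested member, 35 in all, and each point is 1 array (x axis, log2 signal relative to that array's 75th percentile; circles, saline; triangles, colistin), with the genes ordered by fold change. Ucp2 and Slc25a24 stand at the top with their colistin arrays to the right, while for most members the groups are mixed.

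In 8 members no array of either treatment fell inside the other treatment's range, 4 with colistin higher and 4 with colistin lower. Among all genes tested this held for 18.6%, with 6.89% higher and 11.7% lower, so the count of members is near the background. The higher members were Ucp2, Slc25a24, Slc25a22 and Slc25a46, and the lower members were Slc25a35, Slc25a30, Slc25a54 and Ucp1. Apart from Ucp2 none of these passed the test over all genes in the main setting.

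Slc25a24 encodes a calcium-regulated carrier that exchanges ATP-Mg for phosphate. It read -7.19, -0.29, -0.92 and 1.33 on the saline arrays and 2.44, 2.18, 1.56 and 2.04 on the colistin arrays. The colistin arrays lay close together, while saline array 1, not well above background, lay far below the other saline arrays. The difference was 3.83 ± 1.63 with an interval of 0.087 to 7.56 (adjusted p = 0.212, limma). Without saline array 1 it was 2.02 ± 0.57 (adjusted p = 0.152). Without saline arrays 1 and 4 together it was 2.67 ± 0.39 and passed (adjusted p = 0.0449, limma), where 1.15% of all genes passed, 0.919% higher and 0.234% lower. That setting keeps only saline arrays 2 and 3 and no saline array of slide 1. It also leaves out saline array 4, whose Slc25a24 value was the saline value nearest the colistin arrays. The other Slc25a24 probe was well above background on 0 saline and 2 colistin arrays and was not used. Slc25a24 and Slc25a54 lie next to each other, and their annotated gene bodies overlap.

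Slc25a22 encodes a carrier that brings glutamate into the matrix together with protons. It read -0.71, -1.66, -1.64 and -3.05 on the saline arrays and 0.42, 0.46, -0.71 and 0.62 on the colistin arrays. The highest saline array and the lowest colistin array were almost equal, so the groups only just failed to overlap. The difference was 1.96 ± 0.55, a 3.9-fold ratio, with an interval of 0.71 to 3.22 (adjusted p = 0.109, limma), and within slides 1, 2 and 3 it was 2.34, 0.95 and 2.16. Slc25a46 encodes an outer membrane member that takes part in mitochondrial fission and membrane lipid supply. It read -0.10, 0.043, -0.28 and 0.39 on the saline arrays, which varied little. On the colistin arrays it read 2.18, 2.61, 0.54 and 0.47, so that arrays 1 and 2 lay well above the saline range and arrays 3 and 4 just above it. The difference was 1.44 ± 0.55 (adjusted p = 0.183, limma).

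Slc25a30 encodes a carrier related to the uncoupling proteins that was named for its expression in the kidney. It read 1.53, 2.42, 2.39 and 4.14 on the saline arrays and 0.50, 1.24, 0.90 and 0.14 on the colistin arrays. Each saline array lay above each colistin array, and saline array 4 was the highest. The difference was -1.93 ± 0.57 with an interval of -3.23 to -0.62 (adjusted p = 0.123, limma), and within slides 1, 2 and 3 it was -1.59, -1.52 and -2.07. Slc25a35, a member without a settled substrate, read 1.78, 0.96, 0.94 and 3.03 on the saline arrays and -0.44, -1.77, 0.76 and -1.28 on the colistin arrays. Colistin array 3 lay just under the lowest saline arrays, and the other colistin arrays lay further down. The difference was -2.36 ± 0.68 (adjusted p = 0.12, limma), and within slide 2, which holds saline array 2 and colistin array 3, it was -0.19 against -4.17 and -1.80 on slides 1 and 3.

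Slc25a54 is a relative of the ATP-Mg carriers. It read -0.32, 0.11, -0.53 and -0.059 on the saline arrays and -1.15, -1.56, -1.06 and -0.70 on the colistin arrays, a small and regular gap. The difference was -0.92 ± 0.31 (adjusted p = 0.155, limma). Ucp1, which makes brown fat produce heat, read -2.60, -4.54, -4.54 and -3.75 on the saline arrays and -4.98, -4.92, -4.87 and -4.85 on the colistin arrays. The colistin arrays were nearly identical, and saline arrays 1 and 4 carried most of the gap (-1.05 ± 0.46, adjusted p = 0.224, limma). Ucp1 was dim, though well above background on every array. Members not well above background on any array also gave negative differences without the filter: Slc25a41 -0.81, Slc25a47 -1.03, Slc25a53 -0.53 and Ucp3 -0.95. The part of the background level in the Ucp1 difference was not tested. The fat cell markers Adipoq and Cfd were well above background on every array. They moved in opposite directions, Adipoq by -2.58 ± 0.79 (adjusted p = 0.131, limma) and Cfd by 0.53 ± 0.87. Of the fat cell markers tested, 2 had positive and 2 had negative fold changes. The mean over 4 of the 5 fat cell markers ranged from -3.84 to -1.67 on the saline arrays and from -4.18 to -2.55 on the colistin arrays, and the part of fat cells in the Ucp1 values was not tested.

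**Figure D3:**
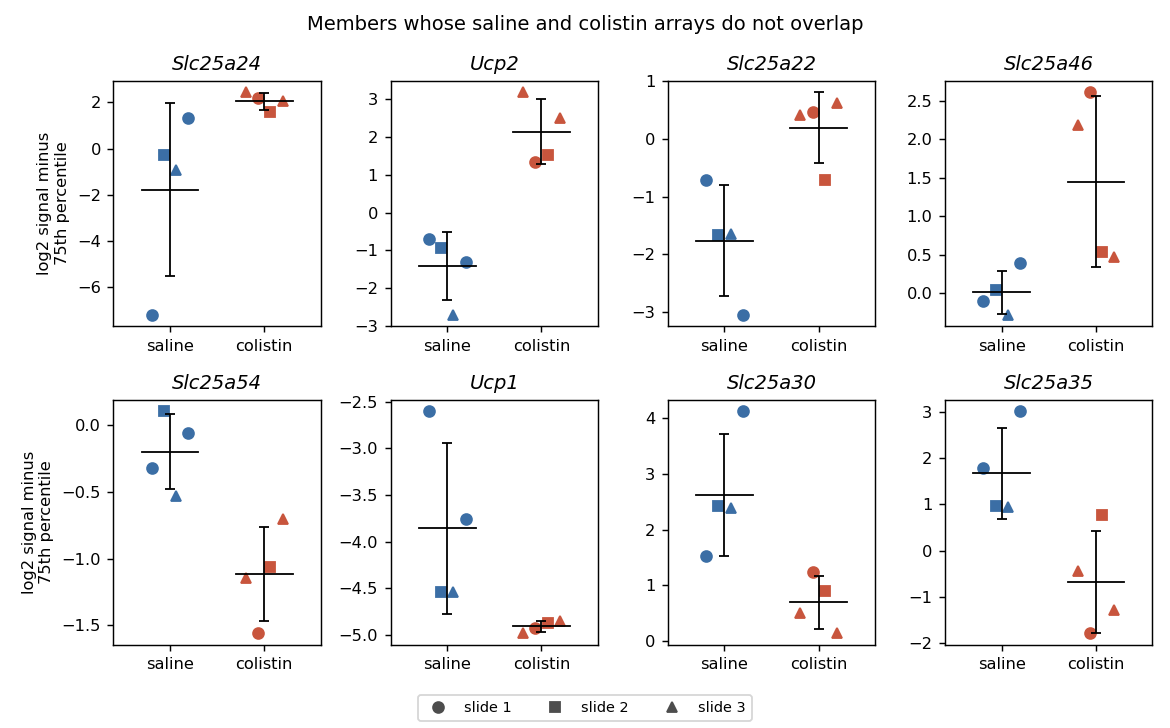
The 8 members whose groups do not overlap are shown array by array (y axis, log2 signal minus the array's 75th percentile), with marker shape giving the slide, the long bar the mean and the error bar the SD (n = 4 per group). The 4 colistin arrays of Ucp2 lie between 1.34 and 3.19, above all saline arrays, whereas the gap in Slc25a22 is almost closed by a single array.

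Ucp2 is also expressed by immune cells, and of the 5 macrophage markers tested 0 passed at the adjusted threshold. All 5 had negative fold changes, with a median of -1.35. Of these, 2 had an unadjusted p below 0.05, Aif1 (-1.35 ± 0.33) and Csf1r (-1.38 ± 0.53). The mean level of the 5 markers ran from 0.11 to 0.92 on the saline arrays and from -1.59 to 0.24 on the colistin arrays, ranges that overlap. The part of macrophages in the Ucp2 values was not tested.

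The calls of the other separated members, apart from Slc25a46, differed under another setting of the processing. That setting starts from raw spot signals in place of the processed ones, and which of its steps changed the calls was not tested. With normexp, a correction fitted to the raw spot and local background signals, 8 members passed, 3 higher and 5 lower, where 5.51% of all genes were higher, 21.8% lower and 27.3% changed in either direction. The members that passed there were Ucp2 (2.82), Slc25a24 (2.32), Slc25a22 (1.25), Slc25a35 (-1.88), Slc25a30 (-1.63), Slc25a54 (-0.70), Ucp1 (-0.66) and Slc25a37 (-0.61). Slc25a46 did not pass there. Normexp also adds a fixed offset to every spot. The 75th percentile of the processed signal was 156 to 197 on saline and 271 to 317 on colistin arrays. Relative to that percentile the offset weighs less on the colistin arrays. This can lower a dim probe there without a change in its RNA. The normexp calls of dim probes, such as those of Ucp1 and Slc25a37, therefore cannot decide whether these genes fell. The members' share, 8 of 36, was again near that of all genes. With slide as a block 0 members passed, where 0.282% of all genes were higher and 0.0403% lower (0.322% in either direction). At an unadjusted p below 0.05 there were 7 members in that fit, a threshold at which all genes were not counted there.

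The remaining uncoupling protein relatives did not pass and were dim on some arrays. Slc25a14 gave 0.88 ± 1.47, with a negative sign under normexp (-0.18) and without saline arrays 1 and 4 (-1.49). Slc25a27 was well above background on 0 of 4 saline and 3 of 4 colistin arrays, and colistin arrays 2 and 4 read -1.73 and -1.45 against -5.27 and -5.99 on arrays 1 and 3. Its difference was 1.55 ± 1.06, a 2.93-fold ratio of the means, with an interval of -0.88 to 3.98 (adjusted p = 0.396, limma). Under normexp it was 0.034. The probe's own saline signals lay above the lowest signal well above background on each array, so that signal sets no lower bound on the ratio. The filter kept this probe through the colistin arrays. Ucp3, which neighbours Ucp2 in the genome, was not well above background on any array.

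The carriers that supply ADP and phosphate for ATP synthesis showed small differences. Slc25a3, the phosphate carrier, read 3.07, 3.11, 3.23 and 3.54 on the saline arrays and 3.91, 3.50, 3.22 and 2.84 on the colistin arrays. These ranges overlap and give one of the tightest intervals in the family, -0.62 to 0.87 around 0.13 ± 0.32. Slc25a4, the ADP/ATP carrier typical of heart and muscle, read 0.055, 1.32, 1.38 and 1.84 on the saline arrays and 1.29, 1.59, 1.82 and 1.03 on the colistin arrays (0.28 ± 0.43). Slc25a5, the ADP/ATP carrier of dividing cells and many other tissues, read 4.75, 4.12, 4.40 and 4.88 on the saline arrays and 3.27, 4.39, 4.65 and 3.51 on the colistin arrays (-0.58 ± 0.40). Its interval of -1.51 to 0.35 allows a fall of up to 1.51 and a rise of up to 0.35. The second Slc25a5 probe gave -0.13 ± 0.44, and the rat genome holds many Slc25a5 pseudogenes that could share signal with either probe. Slc25a25, another ATP-Mg carrier, read -3.93, 0.12, 0.44 and -1.32 on the saline arrays and -1.05, 0.44, -0.091 and -0.59 on the colistin arrays, and saline array 1 alone set its sign (0.85 ± 0.93, and -0.070 without that array). Slc25a41, of the same subgroup, was not well above background on any array.

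The organic acid carriers did not pass the test either. Slc25a10, which exchanges dicarboxylates for phosphate, read 0.13, 0.78, 0.78 and 1.20 on the saline arrays and -1.45, -1.27, 0.68 and 0.14 on the colistin arrays. Colistin arrays 1 and 2 lay below the saline range and arrays 3 and 4 within it, array 4 at its lower edge (-1.20 ± 0.54, adjusted p = 0.233, limma). Slc25a11, the oxoglutarate carrier of the malate-aspartate shuttle, read 2.24, 2.91, 3.26 and 3.75 on the saline arrays and 2.17, 3.42, 2.32 and 2.15 on the colistin arrays (-0.52 ± 0.45). Slc25a1, the citrate carrier, gave -0.41 ± 0.52. Slc25a21, the oxodicarboxylate carrier, gave 1.30 ± 0.87 with 1 of 4 saline and 3 of 4 colistin arrays well above background, and its sign turned under normexp (-0.26).

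Among the amino acid carriers the 5 tested members ranged from -0.32 to 1.96, and none passed. Besides Slc25a22, these were Slc25a38, the glycine carrier needed for haem synthesis (0.94 ± 0.78, and -0.13 under normexp), Slc25a29, a carrier of basic amino acids (0.50 ± 0.55), Slc25a44, a carrier of branched-chain amino acids (0.11 ± 0.46), and Slc25a18, a second glutamate carrier (-0.32 ± 0.29). The probes of Slc25a44 disagreed in sign, the second giving -0.99 ± 0.69. The ornithine carrier genes Slc25a2 and Slc25a15 were each well above background on 1 saline and 1 colistin array and were not tested. Slc25a12 and Slc25a13, the aspartate-glutamate carriers, were not matched to a probe and are not analysed here.

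Slc25a20, which exchanges acylcarnitine for carnitine and so admits long-chain fatty acids to oxidation, read -0.72, 1.88, -0.73 and -0.80 on the saline arrays and 0.14, 0.14, -0.91 and 0.55 on the colistin arrays. Saline array 2 stood far above the other saline arrays. The difference was 0.077 ± 0.67 (adjusted p = 0.956, limma), and without saline array 2 it was 0.74 (adjusted p = 0.328).

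The cofactor, nucleotide and glutathione carriers had 6 negative and 2 positive fold changes, and 0 of 8 passed or lay apart between groups. Slc25a51, the carrier that brings NAD into the matrix, read 2.35, 3.20, 3.02 and 5.10 on the saline arrays and 2.78, 2.46, 2.22 and 1.68 on the colistin arrays, and saline array 4 was by far the highest (-1.13 ± 0.60, adjusted p = 0.287, limma). Without saline array 4 the difference was -0.57. Slc25a39, the glutathione carrier, read 2.60, 2.59, 0.96 and 1.43 on the saline arrays and 0.31, 1.50, 1.30 and 1.33 on the colistin arrays (-0.78 ± 0.49), and its second probe gave a like value of -0.88 ± 0.41. The coenzyme A carriers Slc25a16 and Slc25a42 gave -0.28 ± 0.47 and 0.55 ± 0.73. Slc25a17, a carrier of the peroxisome, gave -0.23 ± 0.33. Slc25a33, a carrier of pyrimidine nucleotides, gave 0.82 ± 0.93. Slc25a32, the folate and FAD carrier, had one of the widest spreads of the family. It read -0.10, -1.04, -0.25 and -7.10 on the saline arrays and -7.69, -0.45, -3.88 and -1.01 on the colistin arrays, so a single array in each group lay at background.

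The mitoferrin genes Slc25a28 and Slc25a37 encode iron importers of the matrix. Slc25a37, the form best known from red cell precursors, read -6.94, -2.49, -6.72 and -3.21 on the saline arrays and -4.51, -3.49, -7.43 and -5.55 on the colistin arrays, and 2 saline and 3 colistin arrays were well above background (-0.40 ± 1.25). Slc25a28, the form of other tissues, gave 1.26 ± 0.74, and its second probe gave 0.20 ± 0.31. Of 4 red cell markers 2 fell, and their mean level ran from 1.15 to 2.19 on the saline arrays and from -1.30 to -0.07 on the colistin arrays. The part of red cells in the Slc25a37 values was not tested.

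Of the members without a settled substrate, Slc25a43 gave -3.36 ± 1.80 (adjusted p = 0.294, limma), with 3 saline arrays and 1 colistin array well above background. Slc25a34 gave -0.54 ± 0.59 and Slc25a45 gave -0.55 ± 1.01. Slc25a47 and Slc25a53 were not well above background on any array. Thus 6 of the 42 members were not tested, namely Slc25a2, Slc25a15, Slc25a41, Slc25a47, Slc25a53 and Ucp3.

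**Figure D4:**
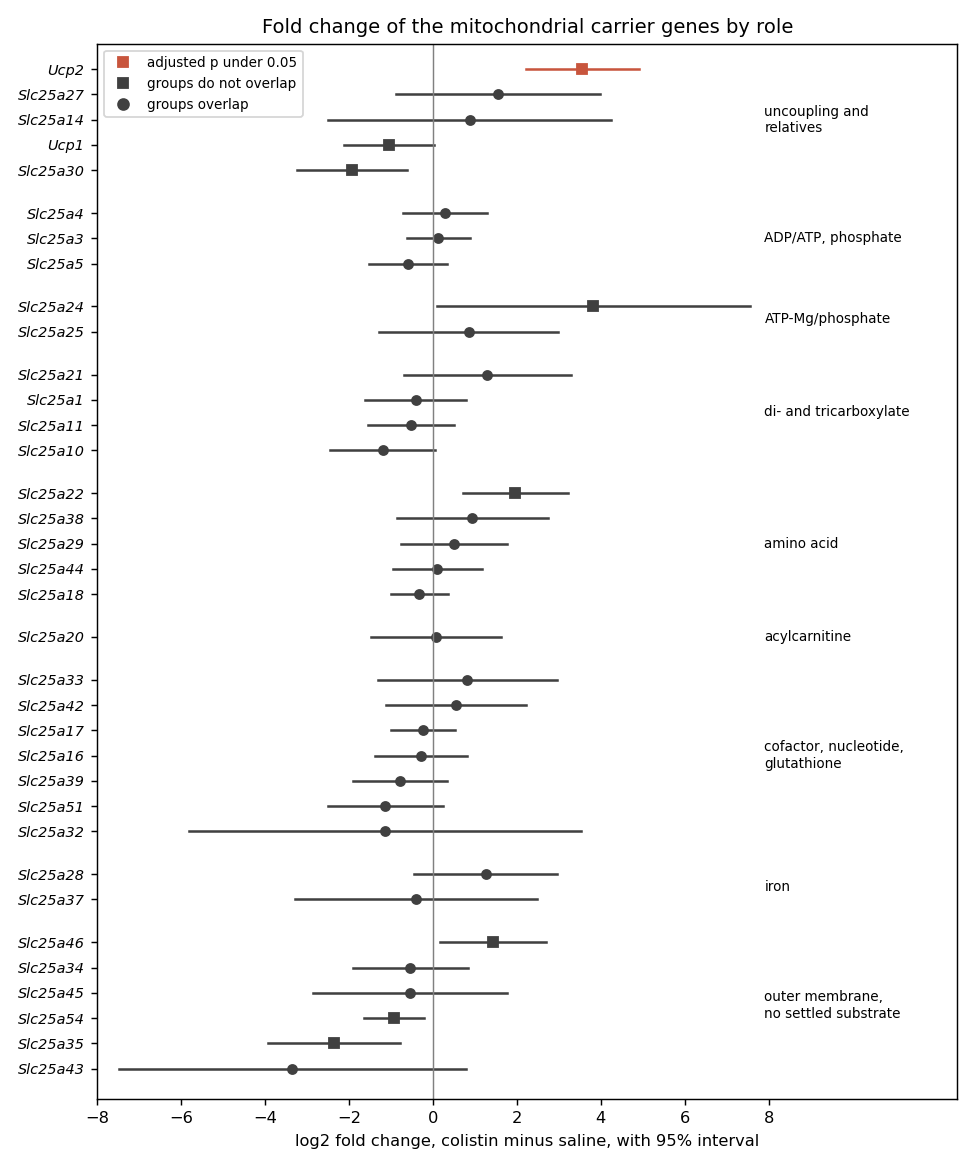
Log2 fold changes (x axis, colistin minus saline) of 35 tested members are shown with 95% intervals, grouped by what each carrier moves (y axis). Ucp2, in red, passed the test, squares mark the members whose groups do not overlap, and the widest intervals belong to members such as Slc25a32, Slc25a43 and Slc25a24 that lay at background on some arrays.

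Genes that work beside the carriers were read from lists of related mitochondrial genes. Of 18 other membrane carriers and channels 0 passed, 2 had an unadjusted p below 0.05, against 22.7% of all genes, and their median was 0.10. Mpc1, a subunit of the pyruvate carrier, read 5.51, 5.82, 5.84 and 5.86 on the saline arrays and 4.11, 4.74, 4.73 and 3.80 on the colistin arrays, with no overlap (-1.41 ± 0.32, adjusted p = 0.0742, limma), and passed under normexp (-1.25, adjusted p = 0.0295). Its partner Mpc2 gave 0.54 ± 0.43, and Vdac1, the main outer membrane channel, gave -0.44 ± 0.36. Sfxn4, the other of the 2, gave 2.37 ± 0.85 with 1 of 4 saline arrays well above background. Of 18 genes of carrier import and membrane upkeep 0 passed, and the median was -0.09. An unadjusted p below 0.05 was reached by 4 of them, a share near the 22.7% of all genes. Those 4 were Timm13 (1.39 ± 0.35, adjusted p = 0.0929, limma), Timm10 (1.15 ± 0.40, 0.16), Tomm40 (2.16 ± 0.89, 0.201) and Mfn1 (-1.33 ± 0.46, 0.159). Tomm20, an import receptor, gave 0.69 ± 0.32.

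Among 21 enzymes that use what the carriers move, 2 rose and 1 fell, where 1.46% of all genes rose and 0.54% fell. An unadjusted p below 0.05 was reached by 4 of the enzymes, against 22.7% of all genes. Alas1, which did not pass, was 1 of those 4 (1.41 ± 0.57, adjusted p = 0.197, limma). Pck2, the phosphoenolpyruvate carboxykinase of the matrix, read -2.05, -0.45, -2.75 and -2.71 on the saline arrays and 1.58, 1.38, 2.11 and 1.46 on the colistin arrays, and rose by 3.62 ± 0.54 (adjusted p = 0.0198, limma; between 0.0533 and 0.0613 without 1 colistin array). The enzyme's cytosolic form Pck1 was the gene that fell (-4.87 ± 0.47). Got2, the aspartate aminotransferase of the matrix, gave 1.15 ± 0.66, and Cs, citrate synthase, gave 0.44 ± 0.46. Of 14 regulators of mitochondrial genes 0 passed, 4 had an unadjusted p below 0.05, against 22.7% of all genes, and the median was -0.30. The 4 were Hnf4a (-1.58 ± 0.38, adjusted p = 0.0832, limma), Esrrg (-1.47 ± 0.39, 0.0977), Ppara (-2.32 ± 0.71, 0.133) and Pprc1 (2.36 ± 0.66, 0.11). The groups lay apart for Hnf4a and Esrrg and overlapped for Ppara and Pprc1. Only 1 saline array detected Pprc1, so the size of its difference is uncertain. Ppargc1a, the coactivator known for driving mitochondrial biogenesis, gave -0.41 ± 0.48, with colistin array 2 at -0.74 below all others.

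Some features of the whole data set bear on these values. The saline arrays were dimmer, with a 75th percentile of 156 to 197 against 271 to 317. After scaling to that percentile, the lowest signal well above background was -6.43 to -5.93 on saline and -7.62 to -6.77 on colistin arrays. A probe at background can therefore read lower on the colistin arrays without a change in its RNA. The part of this in the differences of dim members, such as Ucp1 and Slc25a43, was not tested. Across all genes 248 passed, of which 73.0% were higher; with normexp 3391 passed, of which 20.2% were higher, and when a probe had to be detected on each of the 8 arrays the share was 59.6%. All 7 proximal tubule markers were well above background on every array, with a mean level of 4.65 to 5.44 on saline and 4.10 to 4.76 on colistin arrays, and 2 of them fell. Other cell types moved further: 4 of 6 endothelial markers fell (mean level 1.29 to 1.72 on saline, -1.64 to -0.24 on colistin arrays), as did 1 of 6 collecting duct and distal tubule markers (2.09 to 2.52, and -3.27 to 1.30). Of 4 thick ascending limb markers none passed (0.72 to 2.15, and -5.27 to 0.01). Colistin array 1 gave the lowest mean in both of these tubule lists. On it Aqp2 read -2.79 (other colistin arrays 2.50 to 3.43) and Umod read -6.24 (others -0.47 to 0.40). Aqp3 and Slc26a4, the duct marker that fell, lay there within the range of the other colistin arrays. In whole kidney RNA, fewer cells of a type and less RNA per cell cannot be told apart, and the part of these cell types in the members' differences was not tested.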

How the data were processed

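Kidney RNA was amplified to cDNA and labelled with Cy3 before hybridisation, per the labels' protocols. The intensity values are linear spot signals from the authors' scanner files, background-subtracted and spatially detrended within each array per the file headers (Agilent Feature Extraction, version 10.5.1.1). The deposited series table holds log2 values: its differences between arrays correlated with those of the scanner files at 0.9998 or above, every probe had a median of 0 over the arrays, and column medians ran from -0.229 to 0.232. The scaling behind it is not given in the sources used here.

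Control spots and 257 to 461 outlying spots per array were left out, and 0 spots were saturated. Copies of each probe were averaged (30367 probes), and a probe was kept (23718 probes) if 3 of the 4 arrays in the saline or the colistin group had it well above background. Accessions without versions were matched to RefSeq's GRCr8 table for names, which gave 18643 named probes. The brightest kept probe stood for its gene. Groups were compared with lmFit and eBayes of limma 3.58.1 in R 4.3.3, two-sided. On simulated data, 67 of 100 genes moved by 4 on the log2 scale and 23 of 100 moved by 2 were recovered, and 8 genes that were not moved also passed. The simulated noise was normal and independent between arrays, so it holds no slide effect. Normexp (offset 50) used the median spot signal in place of the planned mean signal, which the scanner files used here do not hold.

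The 3 slides each carried saline and colistin samples: saline 1, saline 4 and colistin 2 on slide 1, saline 2 and colistin 3 on slide 2, and saline 3, colistin 1 and colistin 4 on slide 3. Values on every array are given for members that passed, for members whose groups did not overlap (up to 6 per direction), and for 12 set members, of which Slc25a13 was not matched. Those of Slc25a27 and Slc25a32 were added after they had been seen. Members, gene lists and alternatives were chosen with earlier results of these data known, and the promoter motifs with the members' values known. Of the members tested, 1 is counted but not reported here by name, as is 1 of the enzymes that rose.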

Additional observations from a re-analysis of the deposited data

Results flagged for a closer look

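In 7 of the groups of 4 arrays looked at, a single array lay far from the other 3. Chance alone sets 1 in 20 such groups apart, and 90 groups were looked at. Slc25a20 read 1.88 on saline array 2, against -0.803 to -0.724 on the other saline arrays. Slc25a38 read -6.06 on saline array 4 (others -2.95 to -2.74), where it was not well above background, and Slc25a32 read -7.10 on the same array (others -1.04 to -0.10). Slc25a11 read 3.42 on colistin array 2 (others 2.15 to 2.32). Slc25a22 read -0.711 on colistin array 3, while the other colistin arrays lay between 0.42 and 0.62. Slc25a39 read 0.307 on colistin array 1 (others 1.30 to 1.50). Mpc1 read 5.51 on saline array 1 (others 5.82 to 5.86).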

How the results depend on the processing

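With normexp 3391 genes and 8 members passed, with slide as a block 40 and 0, with the replicate block 5 and 0, and without saline arrays 1 and 4 together 143 and 1. In both block fits with limma 7 members had an unadjusted p below 0.05, as in the main setting, where 22.7% of all genes did. The share of all genes below that threshold was not counted in the block fits. Replicate numbers do not pair the samples: deviations of same-numbered arrays correlated between -0.020 and 0.013. The count of genes was 78 to 255 and the count of members 0 to 1 when 1 array was left out; the median of the members was -0.20 to 0.12 then, and -0.065 with slide as a block. Ucp2 was 3.13 to 3.83 with 1 array left out, 3.55 with slide as a block, 3.56 with the replicate block (adjusted p = 0.0763) and 3.97 without saline arrays 1 and 4 (adjusted p = 0.0792), and it passed under median scaling, quantile normalization, both other filters, the mean of probes and the deposited values. The cause of these changes was not tested.

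Of the 36 members 19 kept their sign in all settings that tested them. Signs turned under normexp for Slc25a14 (-0.18), Slc25a20 (-0.0098), Slc25a21 (-0.26), Slc25a33 (-0.0083) and Slc25a38 (-0.13), and with slide as a block for Slc25a20 (-0.038). Without saline arrays 1 and 4 they turned for Slc25a14 (-1.49), Slc25a16 (0.0026), Slc25a17 (0.033), Slc25a20 (-0.59), Slc25a25 (-0.60) and Slc25a42 (-0.28), and with the mean of probes for Slc25a44 (-0.44). With 1 array left out signs turned within these ranges: Slc25a1 -0.78 to 0.026, Slc25a3 -0.054 to 0.30, Slc25a4 -0.083 to 0.51, Slc25a14 -0.25 to 1.91, Slc25a16 -0.51 to 0.13, Slc25a20 -0.16 to 0.74, Slc25a25 -0.070 to 1.39, Slc25a32 -2.79 to 0.34, Slc25a37 -1.10 to 0.38, Slc25a44 -0.12 to 0.39, Slc25a45 -1.39 to 0.14 and Ppargc1a -0.74 to 0.017. Members at background on some arrays, such as Slc25a32, Slc25a37 and Slc25a43, have no reliable size. The normexp offset can by itself lower dim probes on the colistin arrays, so sign turns of dim members under normexp do not decide a direction.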
